A study of Homo sapiens with 4 samples.

Results

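Nuclear genes for the machinery that imports proteins into mitochondria were followed in Kasumi-1 cells, a long-established line of human acute myeloid leukemia (AML), with and without knockdown of ANP32B. The genes were chosen by name: symbols that begin with TIMM or TOMM and a digit, together with SAMM50, PAM16, DNAJC19, GRPEL1, HSPA9, PMPCA and PMPCB, without symbols that end in P and digits, and with at least 1 TPM in 2 of the 4 samples. This gave 31 genes of the 18567 in the table and of the 16817 that were tested. Every one of the 31 reached 1 TPM in all 4 samples, so none entered through 1 group alone. TIMM22 was the lowest, between 3.13 and 3.92 TPM, and 4 further rows were left out by their names, namely TOMM20P4, TOMM40P4, TIMM9P2 and the read-through locus TIMM23B-AGAP6.

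RNA-seq was performed on 2 NC samples and 2 sh-ANP32B samples. By the labels, the NC samples had no hairpin and no treatment, whereas the methods of the study name a control hairpin, and the sources used here do not settle which applied. The sh-ANP32B samples carried a hairpin against ANP32B. Which of the hairpins of the study was used, and whether both samples carried the same one, is not given. If they did not, a difference between hairpins cannot be told apart from a difference between replicates. Lentiviral infection and puromycin selection are described for the knockdown cells, so any effect of these cannot be told apart from that of the knockdown if NC had neither. Nothing in the labels says that the samples of a group came from separate cultures, and p-values then measure only the spread between these samples, which may be technical.

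Most mitochondrial proteins are made in the cytosol and carry a targeting signal. The TOM complex of the outer membrane receives them, the SAM complex builds barrel proteins into that membrane, and small TIM chaperones carry hydrophobic clients across the space between the membranes. In the inner membrane TIM22 inserts carriers, TIM23 passes proteins with a presequence to the matrix, an HSP70 motor pulls them in, and a peptidase removes the presequence.

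The values are TPM (a share of all transcripts in a sample, scaled for transcript length), so they can be compared between genes but are shares of a sample, and the sequencing depth behind them is unknown. ANP32B itself stood at 384 and 392 TPM in NC and at 51.8 and 41.2 TPM in sh-ANP32B, a log2 fold change (sh-ANP32B minus NC, called log2 difference from here on) of -3.04 (standard error 0.15, adjusted p 0.00516 by limma). The adjusted p was 0.0929 when limma was fitted without the abundance trend. Of 6 myeloid blast markers 4 had a row in the deposited values, and CD34 and MPO had none under their symbols. RUNX1T1 lay between 15.6 and 31.2 TPM, CD33 between 58.5 and 70.1 TPM, ANPEP between 81.7 and 134 TPM and KIT between 1.55 and 3.41 TPM. Their summed level was 158 to 175 TPM in NC and 228 to 234 TPM in sh-ANP32B, and its part in the differences of the import genes was not tested. Of 3 B cell markers 2 had a row, with sums of 6.81 and 8.14 TPM in NC against 3.43 and 5.93 TPM in sh-ANP32B. The listed T cell, erythroid and epithelial markers were looked up and had no row. As any filter behind the deposited values is not given, a missing row does not give a level. In bulk RNA, fewer cells of a type and less RNA per cell cannot be told apart.

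Together the 31 import genes made up 1951 and 1963 TPM of the NC samples, against 1747 and 1756 TPM of the sh-ANP32B samples. Both knockdown sums lay below both control sums, and their mean was 89.5% of NC. The import genes lay lower rather than higher in most cases: 21 had a negative log2 fold change and 10 a positive one, where 42.1% of all genes tested had a negative one. Their median log2 fold change was -0.20, against 0.08 over all genes tested. The lower genes with an unadjusted limma p under 0.05 (positions in hg38) included the chaperone HSPA9 (ENSG00000113013, chr5:138553756-138575675). Among them were the TOMM genes TOMM5 (ENSG00000175768, chr9:37582646-37592604), TOMM22 (ENSG00000100216, chr22:38681957-38685421), TOMM34 (ENSG00000025772, chr20:44942130-44960397) and TOMM40L (ENSG00000158882, chr1:161225939-161230746). They also held the small TIM genes TIMM10 (ENSG00000134809, chr11:57528464-57530803) and TIMM8A (ENSG00000126953, chrX:101345661-101348742), and the channel gene TIMM17A (ENSG00000134375, chr1:201955503-201970664). The single higher one was TIMM10B (ENSG00000132286, chr11:6481501-6484681).

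No import gene reached the threshold after adjustment. With limma on log2(TPM + 1), a scale that understates the change of low genes, 0 of 31 were lower and 0 higher at an adjusted p under 0.05, where 1.18% of all genes tested were lower and 2.14% higher. This balance over all genes turned with the scaling, from 199 lower and 360 higher genes to 294 lower and 236 higher ones with median-of-ratios scaling. With 2 samples per group, a p that misses the threshold does not show that a gene did not differ. At an unadjusted p under 0.05, 8 were lower and 1 higher (25.8% and 3.23%), beside 8.72% and 15.0% of all genes tested. The study selected genes by p and by a change beyond 0.5 log2 units, and does not say whether that p was adjusted. Applied here to the unadjusted limma p, this criterion was met by 4 lower genes (12.9%) and 0 higher ones, beside 6.55% and 12.1% of all genes tested. Both knockdown values lay on one side of both controls in 15 lower and 3 higher import genes (48.4% and 9.68%), beside 21.4% and 33.2% of all genes tested.

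These counts varied with the processing and with the samples used. After a correction for GC content, 5 genes were lower at an adjusted p under 0.05 (HSPA9, TIMM10, TOMM34, TOMM40L and TOMM5) and TIMM10B was higher (16.1% and 3.23%), beside 6.58% and 11.4% of all genes in that fit. With median-of-ratios scaling HSPA9 was lower (3.23%), beside 1.75% of all genes. Without sh-ANP32B replicate 1 there were 4 lower and 2 higher import genes (12.9% and 6.45%), beside 9.68% and 14.6% of all genes, so the share of lower ones was near the background. Without sh-ANP32B replicate 2 there were 11 lower and 1 higher (35.5% and 3.23%), beside 8.47% and 12.3%. Without NC replicate 1 the median log2 fold change of the import genes was -0.20, against 0.07 over all genes, and without NC replicate 2 it was -0.16, against 0.09.

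**Figure D1:**
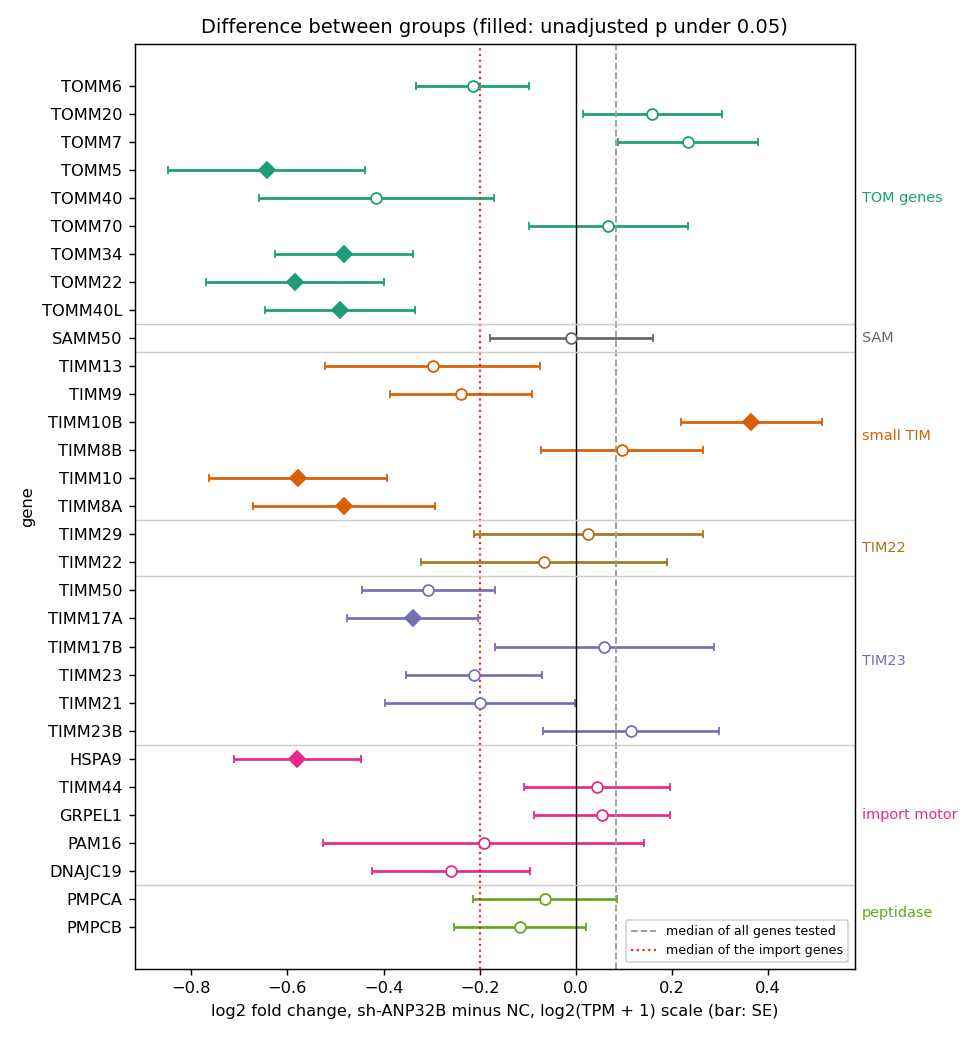
Log2 fold change (sh-ANP32B minus NC, log2(TPM + 1) scale) of each of the 31 import genes with its SE, grouped by role; filled diamonds have an unadjusted limma p under 0.05. The 8 filled genes left of 0 come from the TOM, small TIM, TIM23 and motor groups, TIMM10B is the filled gene on the right, and the median of the import genes (dotted) lies at -0.20 against 0.08 for all genes tested (dashed).

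The start sites of the import genes were searched for 4 short sequences, in windows of 250 bases before to 50 after each start, on both strands (RefSeq, GRCh38.p14). Windows were found for 28 of the 31 genes, and TOMM5, GRPEL1 and TIMM8B had none. The E-box CACGTG, a core that MYC with its partner MAX can bind, was in 4 of the 28 (14.3%), beside 13.0% of the 9959 genes tested that had a window. It was in 7.26% of all 35116 windows. The 4 genes were HSPA9, TIMM10, TIMM8A and TOMM20, and all 4 are shown. Of these, 3 were among the 8 lower genes with an unadjusted limma p under 0.05, and TOMM20, one of the most abundant, was not. The share of 14.3% was near the 13.0% of genes tested, and the other sequences searched were also found in genes of these 8, as given below. TOMM5, also one of the 8, had no window, and the share with an E-box among all lower genes was not computed. The choice to show the windows with an E-box was made after the values were seen. Capitals mark the E-box and, in TIMM10, a match to the ETS core as well.
HSPA9: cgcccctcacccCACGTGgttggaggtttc
TIMM10: CCGGAAGtaaccCACGTGcttccgctggag
TIMM8A: ccgtcgcggagaCACGTGaaggtcggtgcg
TOMM20: aaagtccgtggtCACGTGcaaattcccgac

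All 4 lie on the minus strand, at chr5:138575403-138575432 (HSPA9), chr11:57530738-57530767 (TIMM10), chrX:101348697-101348726 (TIMM8A) and chr1:235128988-235129017 (TOMM20). Counted from the RefSeq start, the E-box began at -19 in HSPA9, at -1 in TIMM10, at 29 in TIMM8A and at -168 in TOMM20. In GENCODE the windows of HSPA9, TIMM10 and TIMM8A fall within an exon of the same gene, and that of TOMM20 falls in none. The ETS core CCGGAAG was in 12 of the 28 windows (42.9%), beside 23.1% of genes tested and 10.3% of all windows. The NRF1 sequence, GCGC, any base and TGCGC in a row, was in 6 (21.4%), beside 14.1% and 5.78%, and CCAAT was in 10 (35.7%), beside 42.7% and 34.6%. Of the lower genes with an unadjusted limma p under 0.05, TIMM10, TOMM22 and TOMM34 had the ETS core, as had the higher TIMM10B. TOMM34 had the NRF1 sequence, and TIMM17A and TOMM40L had CCAAT. A match describes letters and not binding, and these shares were not tested.

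The TOM genes, grouped by name and so with the cytosolic TOMM34, were the most abundant group. They summed to 928 and 925 TPM in NC against 873 and 839 TPM in sh-ANP32B. TOMM5, a small subunit that belongs to the core of the TOM channel, had the largest negative fold change of the 31. It stood at 97.2 and 92.1 TPM in NC and at 73.9 and 49.0 TPM in sh-ANP32B, a log2 difference of -0.64 (standard error 0.21, adjusted p 0.127 by limma). Both knockdown values lay below both controls, but they differed from each other more than the nearer one differed from NC. The log2 fold change was -0.93 without sh-ANP32B replicate 1 and -0.35 without replicate 2, and TOMM5 overlaps a further protein-coding locus on the same strand (ENSG00000256966, with no symbol), which was listed between 0.0401 and 2.03 TPM. With the replicate number as a block the limma adjusted p of TOMM5 was 0.0455. It was the only lower import gene in that fit (3.23%, beside 2.92% of all genes).

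TOMM22, the central receptor of the complex, stood at 34.8 and 37.5 TPM in NC and at 20.5 and 27.4 TPM in sh-ANP32B. Its NC mean of 36.1 ± 1.93 TPM compared with 24.0 ± 4.86 TPM after knockdown (SD, n = 2 per group), or 66.4% of NC, with a log2 difference of -0.58 (standard error 0.19, adjusted p 0.126 by limma). The groups did not overlap. TOMM34, a cytosolic cochaperone that handles precursors before import, stood at 60.7 and 58.2 TPM in NC and at 39.7 and 45.0 TPM in sh-ANP32B, a log2 difference of -0.48 (standard error 0.14, adjusted p 0.113 by limma). Both replicates of each group were close and the groups lay apart. TOMM34 overlaps PABPC1L on the opposite strand, and as the use of strand in counting is not given, its reads and those of PABPC1L cannot be told apart. PABPC1L was between 8.81 and 16.1 TPM.

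TOMM40 forms the channel through which precursors cross, and TOMM40L is its less studied relative. TOMM40L stood at 29.5 and 30.4 TPM in NC and at 20.1 and 22.0 TPM in sh-ANP32B, a log2 difference of -0.49 (standard error 0.16, adjusted p 0.126 by limma). TOMM40 stood at 71.6 and 68.2 TPM in NC, but at 40.0 and 67.9 TPM in sh-ANP32B. Only replicate 1 of the knockdown was far from the controls, and the log2 difference was -0.42 (standard error 0.24, adjusted p 0.356 by limma). TOMM40 has a GC content of 58.3%. In the fit with GC correction and the replicate block, 8 import genes were lower at a limma adjusted p under 0.05 (25.8%, beside 6.21% of all genes). TOMM40 was among these 8, as was TIMM13, and neither was among the 8 lower at an unadjusted limma p under 0.05 without correction or block. The rest of these 8, HSPA9, TIMM10, TOMM22, TOMM34, TOMM40L and TOMM5, were in both sets.

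The receptor genes TOMM20 and TOMM70, which recognise presequences and internal signals, showed no such difference. TOMM20 stood at 231 and 239 TPM in NC and at 293 and 236 TPM in sh-ANP32B, so the groups overlapped, with a log2 difference of 0.16 (standard error 0.14, adjusted p 0.56 by limma). TOMM70 stood at 65.3 and 67.4 TPM in NC and at 79.2 and 61.1 TPM in sh-ANP32B, which also overlapped. For both genes sh-ANP32B replicate 1 was the highest of the 4 samples. TOMM20 has a processed copy, TOMM20P4, listed between 10.6 and 17.7 TPM, with which it may share reads.

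The remaining small subunits went in different directions. TOMM6 was the most abundant import gene in NC, at 241 and 237 TPM, and stood at 205 and 207 TPM in sh-ANP32B. The replicates were close and the groups lay apart, with a log2 difference of -0.21 (standard error 0.12, adjusted p 0.323 by limma). An unnamed protein-coding locus (ENSG00000124593) covers TOMM6 on the same strand and may share its reads. It was listed at 13.4 and 11.1 TPM in NC and at 15.2 and 19.4 TPM in sh-ANP32B. TOMM7 stood at 96.8 and 94.8 TPM in NC and at 102 and 124 TPM in sh-ANP32B, and its log2 fold change of 0.23 (standard error 0.15, adjusted p 0.383 by limma) was positive. Of the 9 TOM genes, TOMM34 among them, 6 lay lower without overlap and 1, TOMM7, higher, where 21.4% and 33.2% of all genes tested did. SAMM50, the barrel of the SAM complex, stood at 23.4 and 26.8 TPM in NC and at 23.1 and 26.8 TPM in sh-ANP32B, a log2 difference of -0.01 with an SE of 0.17.

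**Figure D2:**
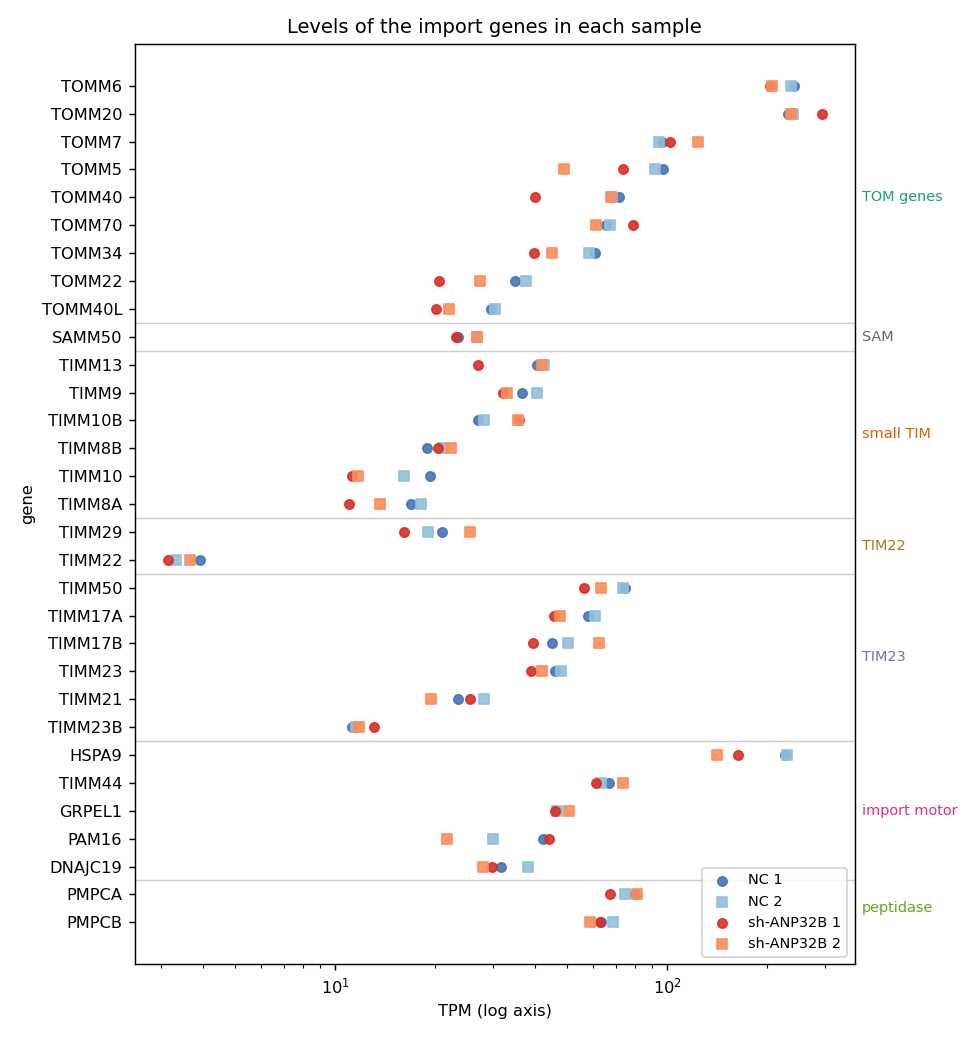
TPM of each import gene in each of the 4 samples on a log axis, grouped by role (blue, NC; red and orange, sh-ANP32B; circles, replicate 1; squares, replicate 2). Levels span from about 3 TPM for TIMM22 to over 200 TPM for TOMM6, TOMM20 and HSPA9, and the red and orange points of HSPA9, TOMM22, TOMM34, TOMM40L and TIMM10 sit left of the blue ones.

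The small TIM genes encode chaperones that work as hexamers, TIMM9 with TIMM10 and TIMM8A with TIMM13. Their sum was 159.5 and 166.5 TPM in NC against 137.5 and 158.5 TPM in sh-ANP32B. TIMM10 stood at 19.3 and 16.1 TPM in NC and at 11.3 and 11.7 TPM in sh-ANP32B, with means of 17.7 ± 2.26 and 11.5 ± 0.313 TPM (SD, n = 2 each). The knockdown mean was 64.9% of NC, and the log2 difference was -0.58 (standard error 0.19, adjusted p 0.128 by limma). Its partner TIMM9 stood at 36.7 and 40.5 TPM in NC and at 32.05 and 33.0 TPM in sh-ANP32B, a log2 difference of -0.24 (standard error 0.15, adjusted p 0.379 by limma). Both genes of this hexamer lay lower without overlap.

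TIMM10B, a relative of TIMM10 that attaches the small TIM chaperones to the TIM22 translocase, lay the other way. It stood at 27.0 and 28.0 TPM in NC and at 35.8 and 35.6 TPM in sh-ANP32B, a log2 difference of 0.36 (standard error 0.15, adjusted p 0.197 by limma), and at an unadjusted p under 0.05 it was the only higher import gene. An unnamed protein-coding locus (ENSG00000283977) covers TIMM10B on the same strand, and the values of TIMM10B are uncertain for that reason.

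TIMM8A, the gene altered in Mohr-Tranebjaerg deafness-dystonia syndrome, stood at 16.9 and 18.1 TPM in NC and at 10.99 and 13.6 TPM in sh-ANP32B, a log2 difference of -0.48 (standard error 0.19, adjusted p 0.19 by limma). Its relative TIMM8B stood at 18.9 and 21.1 TPM in NC and at 20.4 and 22.4 TPM in sh-ANP32B, and the groups overlapped. TIMM8A was thus 47.3% and 46.2% of the summed TPM of the pair in NC and 35.0% and 37.9% in sh-ANP32B, with no overlap between groups. TIMM13 stood at 40.7 and 42.7 TPM in NC but at 26.9 and 42.1 TPM in sh-ANP32B, so replicate 1 alone was low. TIMM13 has the highest GC content of the 31, at 62.1%.

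The TIM22 genes showed no difference that exceeded the spread between replicates. TIMM22, the channel for carrier proteins, had a log2 difference of -0.07 with an SE of 0.26. TIMM29, which holds that complex together, stood at 21.0 and 19.0 TPM in NC and at 16.2 and 25.6 TPM in sh-ANP32B, so that the knockdown samples lay on either side of the controls.

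Among the TIM23 genes, TIMM17A and TIMM50 lay lower. TIMM17A, a channel subunit, stood at 57.7 and 60.7 TPM in NC and at 45.6 and 47.5 TPM in sh-ANP32B, a log2 difference of -0.34 (standard error 0.14, adjusted p 0.197 by limma). TIMM50, the receptor that takes presequences from the TOM complex, stood at 74.6 and 73.5 TPM in NC and at 56.2 and 63.4 TPM in sh-ANP32B, a log2 difference of -0.31 (standard error 0.14, adjusted p 0.239 by limma). Neither gene overlapped between groups. TIMM21, which links TIM23 to TOM, stood at 23.5 and 28.1 TPM in NC and at 25.5 and 19.4 TPM in sh-ANP32B, and overlapped.

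TIMM17B is the alternative to TIMM17A in the channel. It stood at 45.2 and 50.2 TPM in NC and at 39.4 and 62.5 TPM in sh-ANP32B, with the knockdown samples on either side of NC. TIMM17A made up 56.1% and 54.8% of the pair in NC and 53.7% and 43.2% in sh-ANP32B. The share was lower in both knockdown samples, but only replicate 2 was far from NC, and TIMM17B overlaps PQBP1 on the opposite strand.

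TIMM23, the central channel subunit, stood at 45.8 and 47.9 TPM in NC and at 38.8 and 41.9 TPM in sh-ANP32B, a log2 difference of -0.21 (standard error 0.14, adjusted p 0.416 by limma). Its near-identical copy TIMM23B stood at 11.3 and 11.6 TPM in NC and at 13.1 and 11.8 TPM in sh-ANP32B. Reads can be split between these copies in a way the table does not show, so both levels are uncertain. The read-through locus TIMM23B-AGAP6, which covers TIMM23B on the same strand, was listed between 1.59 and 4.35 TPM and may share reads as well. Without it, the sum of TIMM23 and TIMM23B was 57.1 and 59.5 TPM in NC against 51.9 and 53.8 TPM in sh-ANP32B.

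**Figure D3:**
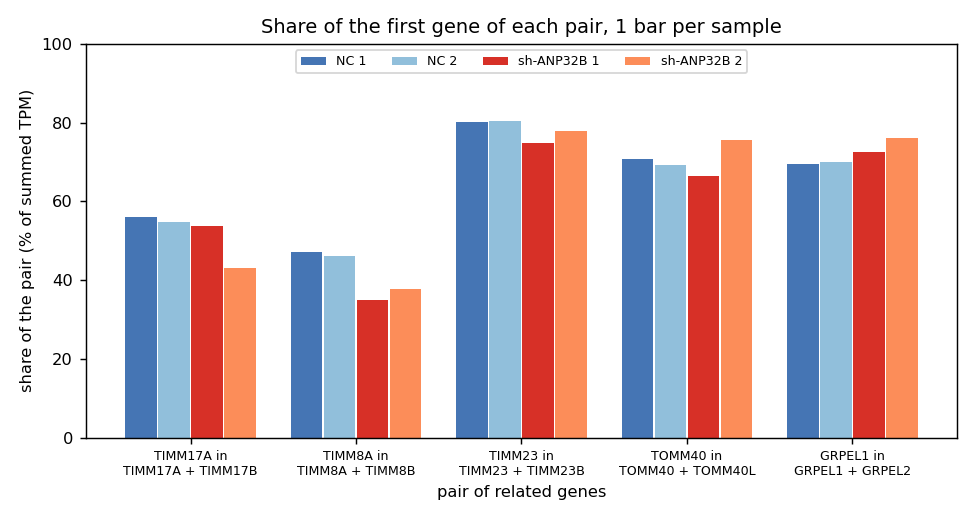
Share of the first gene in the summed TPM of each pair of related genes, with 1 bar for each sample from 0 to 100%. TIMM8A is 47.3% and 46.2% of its pair in NC and 35.0% and 37.9% in sh-ANP32B, whereas for TIMM17A only sh-ANP32B replicate 2 (43.2%) is far from NC and for TOMM40 the sh-ANP32B bars lie on either side of NC.

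The import motor held the gene with the lowest p of the 31. HSPA9 encodes mortalin, the mitochondrial HSP70 that binds the incoming chain. It stood at 227 and 229 TPM in NC and at 164 and 142 TPM in sh-ANP32B. The means were 228 ± 1.62 and 153 ± 15.7 TPM (SD, n = 2 per group), so the knockdown mean was 66.96% of NC, and the log2 difference was -0.58 (standard error 0.13, adjusted p 0.0647 by limma).

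The NC replicates of HSPA9 were nearly equal and both knockdown samples lay well below them. Over 13 alternatives its log2 fold change ranged from -0.68 to -0.47 and its limma adjusted p from 0.000914 to 0.4997, and 5 of them put it under 0.05. The highest values came from fits that left out an NC replicate.

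The other motor genes differed less than HSPA9. TIMM44, which tethers the motor to TIM23, stood at 67.0 and 63.1 TPM in NC and at 60.97 and 73.8 TPM in sh-ANP32B. GRPEL1, the nucleotide exchange factor of HSPA9, stood at 46.2 and 46.6 TPM in NC and at 46.0 and 50.5 TPM in sh-ANP32B, and its log2 fold change was 0.05 (SE 0.14). Both overlapped between groups. DNAJC19, a J protein that stimulates HSPA9, stood at 31.6 and 38.1 TPM in NC and at 29.7 and 27.9 TPM in sh-ANP32B, without overlap (difference on the log2 scale -0.26, SE 0.16).

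PAM16, the J-like partner that restrains the J protein of the motor, was the least even gene of the 31. It stood at 42.4 and 29.9 TPM in NC and at 44.1 and 21.8 TPM in sh-ANP32B, so that replicates differed more than groups. The read-through locus CORO7-PAM16, which spans it on the same strand, stood at 4.04 and 1.71 TPM in NC and at 0.0718 and 19.1 TPM in sh-ANP32B. It was highest in the sample where PAM16 was lowest, and the assignment of reads between these loci is uncertain.

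The presequence peptidase showed little difference. PMPCB, its catalytic subunit, stood at 63.3 and 68.6 TPM in NC and at 62.8 and 58.7 TPM in sh-ANP32B (difference on the log2 scale -0.12, SE 0.14). PMPCA, the subunit that binds the presequence, stood at 80.2 and 74.8 TPM in NC and at 67.4 and 81.3 TPM in sh-ANP32B (difference on the log2 scale -0.06, SE 0.15). PMPCB lay lower by a narrow margin and PMPCA overlapped.

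The knockdown replicates of the import genes differed along GC content. A log2 difference over 0.5 between replicates was found for 6 of the 31 genes in sh-ANP32B (TOMM5, TOMM40, TIMM13, TIMM17B, TIMM29 and PAM16) and for 0 in NC. The difference of sh-ANP32B replicate 2 from replicate 1 had a Spearman rho of 0.61 with the GC content of the longest transcript across the 31 genes, and rho was 0.58 across 15427 genes. Between the NC replicates rho was -0.54 across the 31 genes and -0.21 across the 15427 genes. The differences of the 31 genes were smaller there (median 0.0758 log2 units against 0.205). The log2 fold change between groups had a rho of -0.05 with GC content across the 31 genes and of 0.16 across the 15427 genes. Genes of 1 library share its composition and are not independent, so these values describe the libraries.

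**Figure D4:**
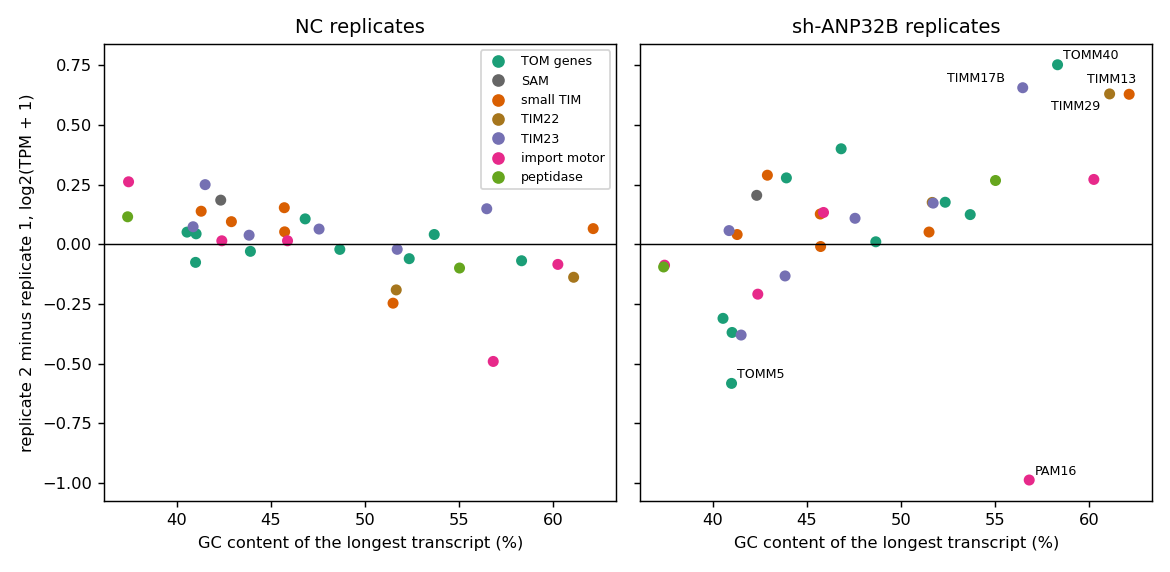
Difference of replicate 2 from replicate 1 (log2(TPM + 1)) against the GC content of the longest transcript for the 31 import genes, for NC on the left and sh-ANP32B on the right, coloured by role. In sh-ANP32B the GC-rich TOMM40, TIMM17B, TIMM29 and TIMM13 lie above 0.5 and TOMM5 below -0.5, with PAM16 as an exception, whereas no NC point passes 0.5.

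A second list held 37 tested genes that work beside the import machinery. With limma 1 of them was lower at an adjusted p under 0.05 and 0 were higher (2.70% lower, beside 1.18% of all genes tested), and 7 were lower and 0 higher at an unadjusted p under 0.05 (18.9% lower, beside 8.72% of all genes tested). The one gene was MIPEP (ENSG00000027001, chr13:23730189-23889400), a matrix peptidase that trims some presequences a further time after the first cut. It stood at 13.6 and 13.6 TPM in NC and at 5.81 and 5.82 TPM in sh-ANP32B, a log2 difference of -1.10 (standard error 0.19, adjusted p 0.044 by limma). The knockdown mean was 42.8% of NC. The adjusted p by limma was 0.114 without the abundance trend, 0.152 without NC replicate 1 and 0.164 without NC replicate 2.

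Over the second list 14 genes lay lower without overlap and 6 higher (37.8% and 16.2%), beside 21.4% and 33.2% of all genes tested. The higher ones included PARL, PITRM1 and MTCH1. A negative log2 fold change was found for 19 of the 37 (51.4%), beside 42.1% of all genes tested. After MIPEP, the next in order of p were CLPX, MTCH2 and PHB1, each lower without overlap. CLPX, the unfoldase of a matrix protease, stood at 37.8 and 41.3 TPM in NC and at 25.1 and 23.8 TPM in sh-ANP32B (difference on the log2 scale -0.67, limma adjusted p 0.0636). MTCH2, an insertase of the outer membrane, stood at 73.0 and 70.1 TPM in NC and at 51.2 and 44.04 TPM in sh-ANP32B (difference on the log2 scale -0.58, limma adjusted p 0.0777). PHB1, a prohibitin scaffold subunit, stood at 134 and 119.5 TPM in NC and at 86.6 and 92.2 TPM in sh-ANP32B (difference on the log2 scale -0.50, limma adjusted p 0.0905).

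CHCHD4, which oxidises small TIM proteins as they enter, stood at 21.9 and 24.8 TPM in NC and at 17.0 and 16.4 TPM in sh-ANP32B (difference on the log2 scale -0.46, limma adjusted p 0.164). The median of the list was -0.11. After GC correction 6 genes of the list had an adjusted p under 0.05 (16.2%), beside 18.0% of all genes. These shares count both directions together, so they do not show whether lower genes were more frequent in the list than among all genes. When 1 sample was left out, 1 remained in its group, and the number of calls in such fits is not given for this list. The 6 genes after GC correction comprised 5 lower ones and 1 higher one of the 37. In that fit 6.58% of all genes had a lower call and 11.4% a higher call.

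GRPEL2, the relative of GRPEL1, belongs to this list. GRPEL1 made up 69.4% and 70.1% of their summed TPM in NC and 72.5% and 76.0% in sh-ANP32B.

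Of other mitochondrial gene families, the 82 mitochondrial ribosomal protein genes had a median log2 fold change of -0.22 and the 38 SLC25 carrier genes one of 0.02, against -0.20 for the import genes. Of the ribosomal genes 52.4% lay lower without overlap and 6.10% higher, and of the carrier genes 26.3% and 28.9%. The differences between these lists were not tested. Mitochondrially encoded transcripts made up 12.9% and 13.1% of the TPM in NC and 11.4% and 8.43% in sh-ANP32B. TPM are shares, and the part of these transcripts in the differences of the import genes was looked at only by leaving them out. The median of the import genes was then -0.25 and that of all genes 0.04, where they were -0.20 and 0.08 with these transcripts. Both medians thus moved down.

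**Figure D5:**
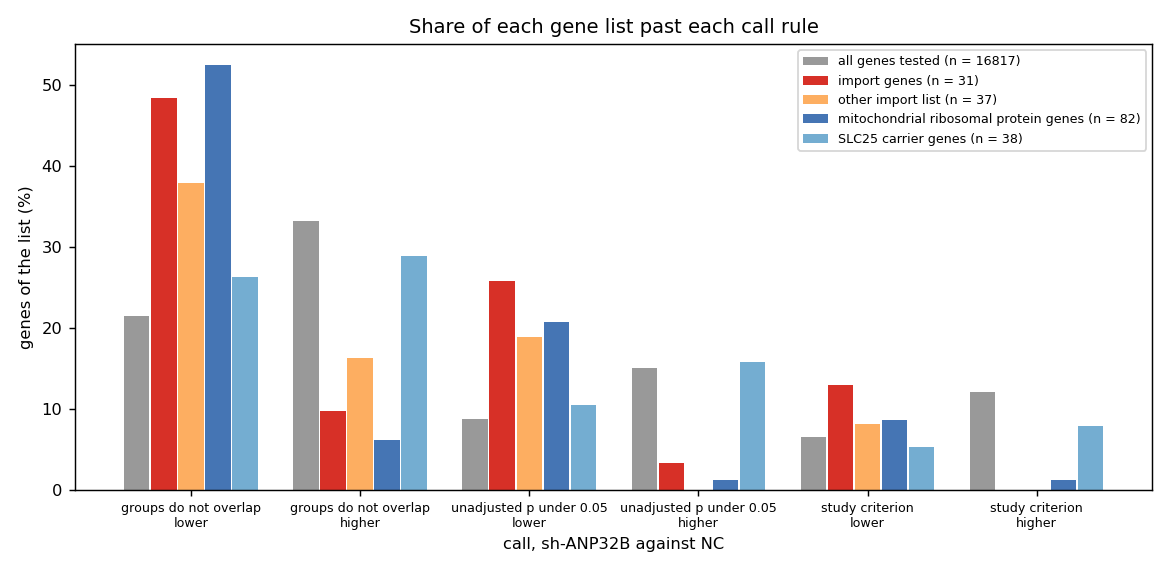
Percentage of each gene list past each call rule in sh-ANP32B against NC, for all genes tested (grey), the 31 import genes (red), the second import list (orange), mitochondrial ribosomal protein genes (dark blue) and SLC25 carriers (light blue). For the import genes 48.4% lie lower and 9.68% higher without overlap, where 21.4% and 33.2% of all genes do.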

How the data were processed

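RNA-seq reads of 2 NC and 2 sh-ANP32B samples were aligned to hg38 with HISAT2 2.0.5, per the methods and the submitters' processing notes. The deposited values are TPM for 18567 Ensembl genes, identified from column sums of 997812 to 998314. The program and annotation behind the TPM, and any filter, are not given in the sources used here. TPM keeps no depth, and counting error was therefore not estimated.

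Symbols, positions, overlaps and GC content came from GENCODE v44 (hg38), in which 16986 IDs were found and 1581 were not. The 16817 genes that reached 1 TPM in 2 or more samples were converted to log2(TPM + 1) and compared by limma 3.58.1 with an abundance trend under R 4.3.3. Two-sided p-values were adjusted by the Benjamini-Hochberg method over all genes tested. DESeq2, the tool of the study, takes counts and was therefore not applied. The limma step was first tested on simulated data. The import genes and all lists were chosen with earlier results of these data known. By a rule, values by sample were given for import genes past a threshold, the most abundant one and pairs of related genes, and for the 3 genes of lowest p of the second list. The further import genes described singly, PHB1 and CHCHD4 were chosen after their values were seen, as were the overlapping loci. Not every overlap is described: 7 import genes overlap a protein-coding gene on the same strand and 11 on the opposite strand. Promoters of genes with an adjusted p under 0.05 were to be shown, and as there was none, those with an E-box were shown instead, as short windows. Alternatives changed the scaling, pseudocount, filter, GC content (loess in each sample), replicate block, variance trend and samples. Tables and plots were made in Python 3.11.15 (pandas 2.3.3, matplotlib 3.10.9, numpy 2.4.6).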

Additional observations from a re-analysis of the deposited data

How the results depend on the processing

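The median log2 fold change of the import genes was negative in all 13 alternatives. It was -0.20 as reported, -0.29 with median-of-ratios scaling and -0.25 without mitochondrially encoded genes. With GC correction it was -0.15 with or without the replicate block, and it ranged from -0.22 to -0.16 when 1 sample was left out. The median over all genes moved with the scaling as well. That median was 0.08 as reported, 0.0006 with median-of-ratios scaling, 0.04 without mitochondrially encoded genes and 0.09 with GC correction. As reported, 0 import genes were lower at an adjusted p under 0.05; 1 was with median-of-ratios scaling, 5 were after GC correction, 1 with the replicate block, 8 with the block and GC correction together, and 0 to 11 when 1 sample was left out. As shares, lower import genes made up 3.23% with median-of-ratios scaling (beside 1.75% of all genes) and 16.1% with GC correction (beside 6.58%). With the replicate block the share was 3.23%, near the 2.92% of all genes. With the block and GC correction together it was 25.8%, beside 6.21%. The number of higher import genes was 1 with GC correction (3.23%, beside 11.4% of all genes). By the study's criterion 4 import genes were lower as reported, beside 6.55% of all genes. This number was 7 with median-of-ratios scaling (beside 8.97%) and 7 without mitochondrially encoded genes (beside 7.56%). Of the second list 1 gene had an adjusted p under 0.05 as reported, 2 did with median-of-ratios scaling, 6 with GC correction, 4 with the replicate block and GC correction, 0 without the abundance trend, and 0 to 9 when 1 sample was left out. Over all genes 559 were called, 1473 with the replicate block, 2596 with the block and GC correction together, 2778 with GC correction alone, 0 without the abundance trend (3701 at an unadjusted p under 0.05) and 273 to 4079 when 1 sample was left out. In the second list the share called was 5.41% with median-of-ratios scaling, beside 3.15% of all genes. With the block and GC correction it was 10.8%, below the 16.8% of all genes. In that fit 4 genes of the list were lower and 0 higher, beside 6.21% and 10.6% of all genes. The log2 fold change of ANP32B was -3.04 without the trend, with a limma adjusted p of 0.0929. The cause of these shifts was not tested. Leaving out a sample leaves 1 in its group, which is assumed to vary like the other group. Replicate numbers come from the titles, and nothing says that they pair the samples. The deviations of same-numbered samples were correlated by -0.09 (Pearson) and -0.17 (Spearman) across 16817 genes, so the block result is given only as an alternative.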
